A study of Mus musculus with 16 samples.

Results

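The genes described here are 40 mouse genes of glucose uptake, glycolysis and the response to low oxygen. They comprise 16 genes of glucose transport and glycolysis, 4 of the lactate and pyruvate branch, 14 other hypoxia-induced genes and 6 genes of oxygen sensing. A member was found by its symbol in the probe annotation, only probe sets that carry 1 symbol were used, and of several probe sets for 1 gene the brightest on average over the 16 arrays was taken. This left 34 of the 40 members among the 12393 genes of the array. Gapdh was present only as 3 control probe sets, Bnip3l and Loxl2 only on probe sets that name several genes, and Gpi1, Eno1 and Ankrd37 were not analysed here. The member listed as Ero1l carries its present name, Ero1a.

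The samples, in 3 groups, had been hybridised to Affymetrix mouse 430A 2.0 arrays. The iMet melanomas (6 arrays) came from Tyr-rtTA;Tet-Met;Ink4a/Arf-/- mice, in which the tyrosinase promoter drives the tetracycline-responsive activator rtTA and this turns on Met, the receptor of hepatocyte growth factor. The iHRAS* melanomas (6 arrays, called iRas in the titles) came from Tyr-rtTA;Tet-HRASV12G;Ink4a/Arf-/- mice, which carry a mutant HRAS in place of Met. Both tumour groups thus share the Tyr-rtTA activator and the loss of Ink4a/Arf, and differ in the oncogene it turns on. The 4 melanocyte arrays are labelled as free of disease, and the labels used here give no genotype for them. The sample labels speak of isolated melanoma cells and the series design of RNA from skin melanomas, so it is not settled how much host tissue the tumour samples held. Nothing in the labels says that the samples came from separate animals, and p-values therefore measure the spread between these samples.

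Glycolysis splits glucose into pyruvate, and lactate dehydrogenase turns pyruvate into lactate when little of it enters mitochondria. Cells sense oxygen through the EGLN prolyl hydroxylases, which mark the HIF alpha subunits for capture by VHL and breakdown. With little oxygen the alpha subunits persist, pair with ARNT and bind a short DNA core near genes for glucose uptake, glycolysis, pH control and vessel growth, EGLN3 itself among them.

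The deposited values are log2 signals, which were quantile normalized here, and a signal of 6.21 or less was taken as dim. Met averaged 9.47 ± 0.55 in iMet melanomas (SD, n = 6), 6.94 ± 0.77 in iHRAS* melanomas (n = 6) and 8.29 ± 0.89 in melanocytes (n = 4). Cdkn2a, the gene of the Ink4a/Arf locus, was dim on every array and does not check the genotype. Of 7 pigment cell markers on the array, 3 lay above the dim level on most iMet arrays, 4 on most iHRAS* arrays and 3 on most melanocyte arrays. In the melanocytes the pigment enzymes Tyr, Tyrp1 and Dct and the factor Mitf were dim on all 4 arrays, whereas Pmel, Sox10 and Slc45a2 were above that level on all 4. Most keratinocyte and fibroblast markers lay above the dim level on most arrays of every group. In melanocytes only 2 of 7 macrophage markers and 1 of 9 endothelial markers did so. Array means of 11 keratinocyte markers ran from 4.60 to 9.19 in iMet melanomas, from 8.62 to 10.78 in iHRAS* melanomas and from 6.43 to 9.17 in melanocytes. Those of 7 macrophage markers ran from 10.31 to 11.01 in iMet melanomas, from 8.63 to 10.46 in iHRAS* melanomas and from 5.45 to 5.89 in melanocytes. Array 4 of the iHRAS* melanomas stood apart in its 3′ minus 5′ signal of actin control probes (1.12, against 0.06 to 0.30 on the other iHRAS* arrays). Arrays 5 and 6 of the iHRAS* melanomas had Xist at 6.60 and 6.33, against 10.92 or more on the other 14 arrays, and Pgk1 and Pdk3 are X-linked.

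The promoters of 4 members are shown because the first 3 genes had the widest ranges over the iHRAS* arrays and the fourth, which also ranged widely, holds no core motif. Each runs from 250 bases before the RefSeq start site to 50 bases after it (GRCm38.p6, written on the strand of the gene). Capitals mark ACGTG or GCGTG, the HIF core motifs, found on either strand, so that a site on the opposite strand reads CACGT or CACGC. Overlapping sites are run together, as in CACGTG, which holds ACGTG on both strands. The windows are chr12:54203825-54204124 (minus strand, 1 site) for Egln3, chr7:138909457-138909756 (minus, 5 sites) for Bnip3, chr7:110627407-110627706 (plus, 2 sites) for Adm and chr6:124769624-124769923 (minus, 0 sites) for Eno2.
Egln3: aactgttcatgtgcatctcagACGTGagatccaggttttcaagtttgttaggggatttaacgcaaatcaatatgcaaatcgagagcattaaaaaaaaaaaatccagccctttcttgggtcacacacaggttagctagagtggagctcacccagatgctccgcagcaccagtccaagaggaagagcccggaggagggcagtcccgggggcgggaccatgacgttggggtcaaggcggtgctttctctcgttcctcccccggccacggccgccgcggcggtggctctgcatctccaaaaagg
Bnip3: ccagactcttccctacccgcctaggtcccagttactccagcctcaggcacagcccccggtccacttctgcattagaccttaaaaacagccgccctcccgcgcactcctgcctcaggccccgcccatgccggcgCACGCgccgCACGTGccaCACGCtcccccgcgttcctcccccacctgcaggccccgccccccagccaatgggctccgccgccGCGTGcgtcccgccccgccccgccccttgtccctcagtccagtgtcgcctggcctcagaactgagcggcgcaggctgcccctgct
Adm: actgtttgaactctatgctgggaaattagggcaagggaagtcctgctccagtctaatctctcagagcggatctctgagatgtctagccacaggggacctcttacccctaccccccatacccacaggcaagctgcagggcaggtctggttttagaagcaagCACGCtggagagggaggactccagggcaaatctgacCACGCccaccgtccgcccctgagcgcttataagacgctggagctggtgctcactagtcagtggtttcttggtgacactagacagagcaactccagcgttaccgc
Eno2: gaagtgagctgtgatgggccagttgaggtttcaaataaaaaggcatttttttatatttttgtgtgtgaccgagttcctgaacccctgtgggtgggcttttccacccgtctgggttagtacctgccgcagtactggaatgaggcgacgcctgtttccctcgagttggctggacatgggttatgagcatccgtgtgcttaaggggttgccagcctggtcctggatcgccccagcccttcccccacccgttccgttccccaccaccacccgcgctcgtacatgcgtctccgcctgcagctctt

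Of the 35 members with a promoter in the RefSeq table, 29 (82.9%) had at least 1 of these motifs in a promoter, against 46.7% of 27025 genes. Counted by promoter, 37 of 47 member windows (78.7%) held one, against 43.8% of all 32851 windows, of which 19.6% held ACGTG and 32.4% GCGTG. The member windows were also richer in G and C, with a median of 62.7% against 52.7%, and its part in the motif count was not tested. A match describes letters in this window only.

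Between the tumour models, 3 members were lower in iMet melanomas and none was higher. These were the hexokinase Hk1, the platelet-type phosphofructokinase Pfkp and the membrane carbonic anhydrase Car12. The 3 calls were 9.38% of the 32 members tested, against 20.9% of the 8058 genes tested. Of all genes, 905 (11.2%) were higher and 782 (9.7%) lower, or 1800 and 448 on the values as deposited. The median difference over members was -0.21 and over all genes 0.03 on the log2 scale, with iHRAS* subtracted from iMet. In samples of mixed cells such as these, fewer cells of a type and less RNA per cell cannot be told apart.

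Hk1 catalyses the first step of glycolysis in most tissues. Its log2 signals were 10.09, 10.45, 10.05, 11.00, 9.94 and 10.69 on iMet arrays 1 to 6, against 11.07, 11.72, 12.04, 11.64, 11.43 and 11.47 on iHRAS* arrays 1 to 6. Every iMet array lay below every iHRAS* array, a separation seen in 10.7% of all genes tested. The difference was -1.19 ± 0.21 (SE), which is 2.28-fold lower in iMet (limma, adjusted p = 0.0021), and the second Hk1 probe set differed by -0.95. Melanocytes had 10.68, 10.60, 10.49 and 10.41, inside the iMet range and below all iHRAS* arrays. Hk1 was 2.02-fold higher in iHRAS* melanomas than in melanocytes (log2 1.02 ± 0.21, adjusted p = 0.00175), and the iMet difference from melanocytes was -0.18 (95% interval -0.63 to 0.27).

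Pfkp is one of 3 phosphofructokinase subunits, which set the committed step of glycolysis. It had 7.39, 8.90, 7.55, 9.16, 7.96 and 8.29 in iMet melanomas, against 9.03, 9.85, 10.28, 9.68, 8.98 and 8.99 in iHRAS* melanomas. The ranges met only through iMet array 4, which exceeded the 3 lowest iHRAS* arrays. Pfkp was 2.40-fold lower in iMet (log2 -1.26 ± 0.34, limma adjusted p = 0.0197). All iHRAS* arrays lay above the melanocytes, which had 8.46, 8.43, 8.20 and 8.11, and Pfkp was 2.25-fold higher there (log2 1.17 ± 0.34, adjusted p = 0.0147). Its second probe set gave smaller differences of -0.66 between the tumours and 0.23 against melanocytes, and with the probe sets averaged neither call held (adjusted p = 0.0742 and 0.14).

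The other phosphofructokinase subunits and their regulator were not called between the models. The liver-type Pfkl averaged 10.63 in iMet and 11.00 in iHRAS* melanomas, and the muscle-type Pfkm 9.29 and 8.93. Pfkfb3, which makes the allosteric activator of phosphofructokinase, averaged 7.56 and 8.33. The 95% intervals of these differences ran from -1.27 to 0.52 for Pfkl, from -0.16 to 0.88 for Pfkm and from -1.67 to 0.14 for Pfkfb3. The inducible hexokinase Hk2 had a lowest, median and highest signal of 7.91, 8.59 and 9.29 in iMet and of 8.63, 9.02 and 10.22 in iHRAS* melanomas (log2 -0.70, interval -1.43 to 0.02). Slc2a1, the GLUT1 glucose transporter, ran at 8.65, 9.52 and 10.59 in iMet and at 9.61, 10.16 and 11.74 in iHRAS* melanomas (log2 -0.78, interval -1.63 to 0.07). All groups of arrays overlapped for each of these 5 genes.

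For the enzymes of the later steps the differences were -0.40 for the aldolase Aldoa, -0.10 for the triose phosphate isomerase Tpi1, -0.23 for the phosphoglycerate kinase Pgk1 and -0.12 for the phosphoglycerate mutase Pgam1. None of the 4 was called, and Aldoa and Pgk1 were read by probe sets whose probes can also bind related sequences. Gapdh, the next enzyme after the aldolase products, differed by -0.05, 0.15 and 0.07 on its 3 control probe sets (exact permutation p = 0.669, 0.312 and 0.584). The neuronal enolase Eno2 ranged from 6.99 to 9.27 in iMet and from 6.48 to 9.81 in iHRAS* melanomas, with a difference of the means of 0.14. Aldoc, the brain aldolase, lay near the dim level and was tested alone (5.47 ± 0.80 in iMet, 6.31 ± 1.01 in iHRAS*, SD, n = 6 each, exact permutation p = 0.149).

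In the lactate and pyruvate branch, no gene was called between the tumours. Ldha, which forms lactate, averaged 12.52 in iMet and 12.72 in iHRAS* melanomas (log2 -0.19, interval -0.61 to 0.22). Ldhb, the subunit that favours pyruvate, had 8.26, 8.25, 8.60, 9.78, 10.03 and 7.90 in iMet melanomas, against 8.04, 8.37, 7.80, 7.92, 7.98 and 8.31 in iHRAS* melanomas. Only iMet arrays 4 and 5 stood well above the iHRAS* arrays. Pdk1 and Pdk3, kinases that switch off pyruvate dehydrogenase, differed by 0.26 (interval -1.02 to 1.53) and 0.19 (interval -0.22 to 0.60).

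Car12 had the largest difference between the models among the members. Its signals were 5.65, 6.85, 6.06, 3.93, 5.32 and 7.46 on iMet arrays 1 to 6, against 6.94, 7.47, 8.84, 8.76, 7.67 and 8.29 on the iHRAS* arrays. Only iMet array 6 reached into the iHRAS* range, and 4 iMet arrays were dim. The difference was -2.12 ± 0.54, which is 4.33-fold lower in iMet (limma, adjusted p = 0.0153). The keratinocyte marker means on the same iMet arrays were 4.60, 9.19, 7.88, 4.83, 6.58 and 9.14, so that arrays 2 and 6 were the highest in both and array 4 was among the lowest. In melanocytes Car12 was 6.65, 9.17, 6.48 and 8.17 where the keratinocyte means were 7.28, 9.17, 6.43 and 8.98, which is the same order of arrays. The iHRAS* arrays did not share this order, with keratinocyte means of 9.38, 9.09, 8.62, 10.78, 9.49 and 10.67. Car12 was highest there on array 3, which had the lowest keratinocyte mean. The part of keratinocyte signal in the Car12 values is not settled by these orders. With the keratinocyte and endothelial marker means as covariates the Car12 difference was 0.013 (adjusted p = 0.996). In that fit, which called 38 genes higher and 51 lower, Hk1 was at -1.13 (adjusted p = 0.2) and Pfkp at -1.46 (adjusted p = 0.312), and neither was called. The endothelial means ran from 7.57 to 9.10 over iMet arrays and from 6.47 to 7.63 over iHRAS* arrays, so marker signal and model can hardly be told apart there.

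**Figure D1:**
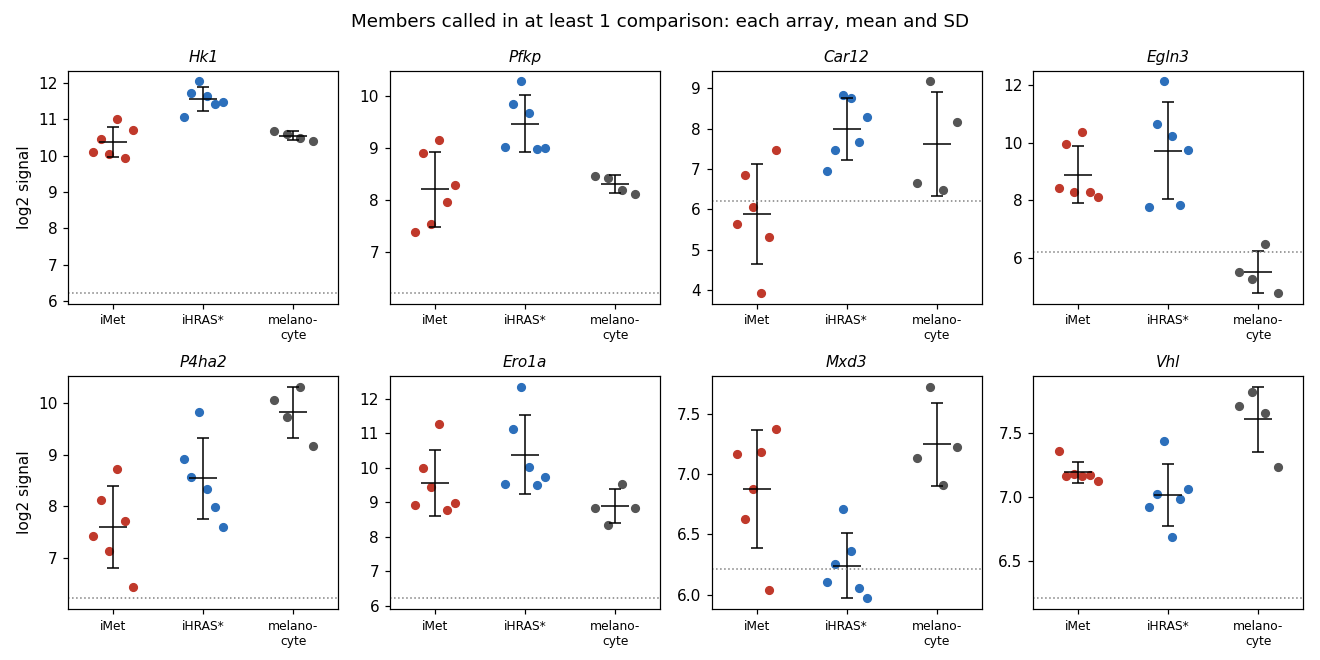
Log2 signal of the 8 members called in at least 1 comparison, one point per array, in iMet melanomas (left), iHRAS* melanomas (middle) and melanocytes (right). Bars give the mean and SD and the dotted line the dim level of 6.21, and for Hk1 every iMet array lies below every iHRAS* array.

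The remaining hypoxia-induced members did not pass the test between the tumours, and most varied strongly inside each group. Adm, the vasodilator peptide adrenomedullin, had 6.56, 8.83, 8.29, 10.05, 7.20 and 4.99 in iMet melanomas, against 5.91, 7.95, 9.69, 6.09, 4.78 and 5.25 in iHRAS* melanomas. Its highest array exceeded its lowest 33.2-fold in iMet and 30.1-fold in iHRAS* melanomas, and the difference of the means (log2 1.04) had an interval of -1.01 to 3.10. Adm lay above the dim level on 5 iMet arrays and 2 iHRAS* arrays. The lowest array of each group was dim, so these folds are taken against background. Bnip3, a mitochondrial protein of mitophagy and cell death, had 9.65, 11.01, 9.68, 12.15, 10.11 and 9.05 in iMet melanomas, against 8.39, 11.04, 12.64, 11.03, 8.82 and 9.34 in iHRAS* melanomas. Its means differed by 0.07 although its range was 8.56-fold and 19.1-fold. The carbonic anhydrase Car9 was near the dim level on most arrays, with a lowest, median and highest signal of 5.66, 6.18 and 8.35 in iMet and of 5.72, 6.54 and 8.04 in iHRAS* melanomas.

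Among the collagen-modifying members, the prolyl 4-hydroxylase subunits P4ha1 and P4ha2 differed by -0.23 (interval -0.82 to 0.36) and -0.95 (adjusted p = 0.121), and the cross-linking enzyme Lox by 0.07 (interval -0.62 to 0.76). The second P4ha1 probe set differed by 0.37. Ndrg1, a stress-response gene, differed by -0.07, the mitochondrial protein Higd1a by -0.73 and the endoplasmic reticulum oxidase Ero1a by -0.82. None of the 6 was called. Mxd3, a repressor of the MYC network, differed by 0.64 ± 0.22 (adjusted p = 0.0539), and by 1.68 and 1.16 on its 2 other probe sets. Cell division markers, 9 of 9 of which were higher in iMet, averaged 10.04 over iMet and 8.83 over iHRAS* arrays, and their part in the Mxd3 values was not tested.

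None of the members of oxygen sensing was called between the tumour models. Hif1a, the oxygen-regulated subunit, had a lowest, median and highest signal of 10.64, 10.99 and 11.31 in iMet and of 10.86, 11.22 and 11.82 in iHRAS* melanomas (log2 -0.25, interval -0.60 to 0.10). Its probe sets disagreed, since another one bright on all arrays differed by 0.61. Its partner Arnt averaged 7.14 in both groups, with an interval of the difference of -0.47 to 0.47. The hydroxylase Egln1 differed by -0.19 (interval -0.91 to 0.53), Egln3 by -0.83 (interval -2.40 to 0.73) and Vhl by 0.18 (interval -0.08 to 0.43). Epas1, the second alpha subunit, was close to the dim level and was tested alone (6.33 ± 0.45 in iMet, 6.02 ± 0.58 in iHRAS*, SD, n = 6 each, exact permutation p = 0.344).

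Against melanocytes, 3 of 34 members were called in iMet melanomas and 7 of 34 in iHRAS* melanomas, and both comparisons use the same 4 melanocyte arrays. These are 8.82% and 20.6% of the members, against 35.1% and 39.3% of the 8651 genes tested. In iMet melanomas Egln3 was higher (16.4% of all genes were) and P4ha2 and Vhl were lower (18.7%). In iHRAS* melanomas Egln3, Hk1, Pfkp and Ero1a were higher (18.1%) and P4ha2, Vhl and Mxd3 were lower (21.3%). The median difference over members was -0.27 for iMet and -0.06 for iHRAS* melanomas, beside -0.08 and -0.09 over all genes.

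Egln3, a prolyl hydroxylase that HIF itself induces in many cell types, had the largest rise of the members. It had 8.41, 9.95, 8.27, 10.36, 8.27 and 8.11 in iMet melanomas and 7.78, 10.64, 12.14, 10.23, 7.83 and 9.75 in iHRAS* melanomas, against 5.50, 5.26, 6.49 and 4.77 in melanocytes. All 12 tumour arrays lay above all melanocyte arrays, of which 3 were dim, so that the melanocyte level lies near background. Such a separation from melanocytes was seen in 27.7% of all genes for iMet and 25.3% for iHRAS* melanomas. Egln3 was 10.5-fold higher in iMet (log2 3.39 ± 0.76, limma adjusted p = 0.0031) and 18.7-fold higher in iHRAS* melanomas (log2 4.22 ± 0.76, adjusted p = 0.000617). The second Egln3 probe set gave 3.43 and 4.23. Without melanocyte arrays 2 and 4 the iMet value was 2.90 (adjusted p = 0.0526). All 7 macrophage markers and 9 and 8 of 9 endothelial markers were also higher in iMet and iHRAS* melanomas, with endothelial means of 8.24 over iMet and 7.06 over iHRAS* arrays against 4.46 over melanocytes, and their part in the Egln3 values was not tested.

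P4ha2, a catalytic subunit that hydroxylates collagen prolines, moved the other way. It had 7.42, 8.11, 7.13, 8.73, 7.71 and 6.43 in iMet melanomas and 8.91, 8.56, 9.83, 8.33, 7.99 and 7.60 in iHRAS* melanomas, against 10.05, 9.73, 10.32 and 9.18 in melanocytes. Every iMet array lay below every melanocyte array, and among the iHRAS* arrays only array 3 reached into the melanocyte range. P4ha2 was 4.69-fold lower in iMet (log2 -2.23 ± 0.44, adjusted p = 0.00133) and 2.43-fold lower in iHRAS* melanomas (log2 -1.28 ± 0.44, adjusted p = 0.0312). The iHRAS* call was lost when melanocyte array 1, 2 or 3 or iHRAS* array 4, 5 or 6 was left out (log2 -1.54 to -1.10 over all arrays left out in turn, adjusted p up to 0.0851). Its sister subunit P4ha1 differed by -0.06 and 0.17, with intervals of -0.65 to 0.54 and -0.42 to 0.77. The second P4ha1 probe set, above the dim level on all 16 arrays, differed by -0.26 and -0.63.

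Vhl, the recognition subunit that captures hydroxylated HIF alpha, was slightly lower in both models. It had a lowest, median and highest signal of 7.12, 7.17 and 7.36 in iMet and of 6.69, 7.01 and 7.44 in iHRAS* melanomas, against 7.71, 7.82, 7.66 and 7.24 on the 4 melanocyte arrays. Melanocyte array 4 overlapped the tumours. Vhl was 1.33-fold lower in iMet (log2 -0.41 ± 0.14, adjusted p = 0.0331) and 1.50-fold lower in iHRAS* melanomas (log2 -0.59 ± 0.14, adjusted p = 0.00435). The iMet call was lost without any one of melanocyte arrays 1, 2 and 3 or iMet arrays 2 to 6 (log2 -0.54 to -0.34 over all arrays left out in turn, adjusted p up to 0.109). On the values as deposited it was -0.26 (adjusted p = 0.271).

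Ero1a, which supplies oxidising power for disulfide bonds, and Mxd3 were called in iHRAS* melanomas. Ero1a had 9.53, 11.13, 12.36, 10.04, 9.51 and 9.73 in iHRAS* melanomas, against 8.83, 8.34, 9.54 and 8.84 in melanocytes. The groups overlapped slightly, through iHRAS* arrays 1 and 5 and melanocyte array 3. Ero1a was 2.82-fold higher (log2 1.50 ± 0.57, adjusted p = 0.0489). That call was lost when any one of 11 of the 16 arrays was left out (log2 1.10 to 1.71, adjusted p up to 0.132), namely melanocyte arrays 1, 2 and 4, iMet arrays 1, 2, 3, 5 and 6 and iHRAS* arrays 2, 3 and 4. Its 2 other probe sets rose by 1.09 and 1.40. In iMet melanomas Ero1a differed by 0.67 (interval -0.54 to 1.89).

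Mxd3 had 6.10, 6.25, 6.71, 6.36, 6.05 and 5.97 in iHRAS* melanomas, against 7.14, 7.73, 6.91 and 7.23 in melanocytes. Every iHRAS* array lay below every melanocyte array, and 3 of them were dim. Mxd3 was 2.02-fold lower (log2 -1.01 ± 0.24, adjusted p = 0.0042), with -1.43 and -1.20 on its other probe sets. Its iMet difference was -0.37 (interval -0.88 to 0.14).

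Several members with large differences from melanocytes missed the threshold. Adm differed by 2.98 in iMet (adjusted p = 0.0577) and by 1.93 in iHRAS* melanomas (adjusted p = 0.197), against melanocytes that themselves ranged from 1.69 to 7.01. Only 1 of the 4 melanocyte arrays was above the dim level for Adm. Eno2 was above all 4 melanocyte arrays on all 6 iMet arrays, yet its difference of 1.40 was not called (adjusted p = 0.0846), and its iHRAS* difference was 1.26 (adjusted p = 0.11). Car9, which was dim on all 4 melanocyte arrays, differed by 0.83 in iMet and 1.21 in iHRAS* melanomas, where its interval ran from 0.14 to 2.28 (adjusted p = 0.0666). Car12 differed by -1.74 in iMet (adjusted p = 0.0505) and by 0.38 in iHRAS* melanomas. Lox, which had 12.21, 11.29, 13.11 and 11.62 in melanocytes, differed by -0.92 in iMet (adjusted p = 0.0831) and by -0.99 in iHRAS* melanomas (adjusted p = 0.0583).

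Among the members, glycolytic enzymes other than Hk1 and Pfkp were not called against melanocytes. Over the 13 genes of glucose transport and glycolysis, 3 were above and 10 below melanocytes in iMet melanomas, and 8 were above and 5 below in iHRAS* melanomas. Of all 8651 genes tested, 3844 were above and 4807 below in iMet melanomas, and 3826 and 4825 in iHRAS* melanomas. The intervals for Slc2a1 were -2.36 to 0.22 in iMet and -1.58 to 1.00 in iHRAS* melanomas. Tpi1 differed by -0.63 and -0.52, Pgam1 by -0.58 and -0.46, Pgk1 by -0.34 and -0.11 and Ldha by -0.36 and -0.17, in iMet and in iHRAS* melanomas. The 3 Gapdh control probe sets differed by -0.28, -0.32 and -0.33 in iMet melanomas (exact permutation p = 0.0143, 0.00952 and 0.0238) and by -0.24, -0.47 and -0.40 in iHRAS* melanomas (p = 0.0476, 0.0286 and 0.0238). Adjusted over the 11 exact tests made, these values were 0.0629 to 0.0873. Pdk1 differed by -0.53 and -0.78, and Bnip3 by 0.00 and -0.06 with intervals of -1.70 to 1.70 and -1.76 to 1.64.

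The other members were not called in either model. In iMet and in iHRAS* melanomas, Hk2 differed by 0.02 and 0.72, Pfkl by -0.10 and 0.27, Pfkm by 0.14 and -0.22 and Pfkfb3 by -0.58 and 0.19. Aldoa differed by -0.21 and 0.19, Aldoc by -0.73 and 0.11, Ldhb by 0.26 and -0.47 and Pdk3 by 0.12 and -0.06. Ndrg1 differed by -0.96 and -0.89, with all 5 of its probe sets below melanocytes in both models, and Higd1a by -0.71 and 0.03. Among the HIF subunits and their regulators, Hif1a differed by -0.10 and 0.15, Arnt by -0.32 in both models, Egln1 by -0.82 and -0.63 and Epas1 by -0.22 and -0.54. The Hif1a probe sets disagreed here too. Another one above the dim level on all 16 arrays differed by -0.47 and -1.08, and a further such one by -0.29 and -0.17. A last one, above that level on 4 arrays, differed by 0.61 and -0.43.

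**Figure D2:**
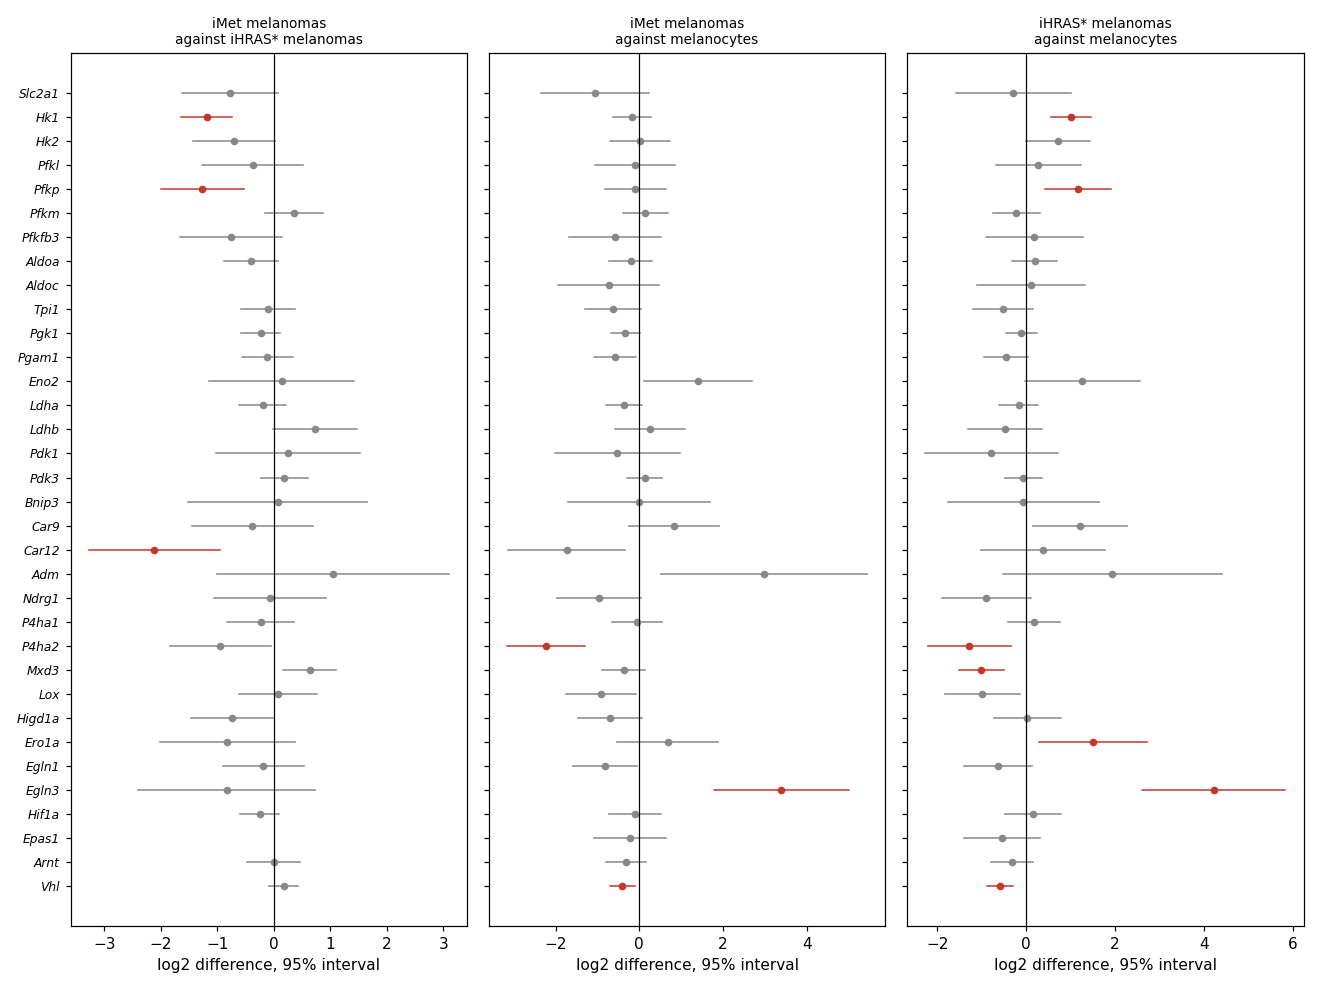
Log2 difference of each tested member with its 95% interval, for iMet against iHRAS* melanomas (left), iMet melanomas against melanocytes (middle) and iHRAS* melanomas against melanocytes (right). Red marks the 3, 3 and 7 members called at an adjusted p under 0.05, and Egln3 is farthest to the right in both melanocyte comparisons.

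Genes of the same pathways outside the member list were also compared. Of 20 further hypoxia-induced genes tested, 5 were higher and 3 lower than in melanocytes in each of the 2 models. Of all genes, 16.4% were higher in iMet and 18.1% in iHRAS* melanomas, and 18.7% and 21.3% were lower. Between the tumours 2 of the 20 were lower in iMet, against 9.7% of all genes. Angptl4, a secreted inhibitor of lipoprotein lipase, averaged 9.30 ± 0.68 in iMet and 9.82 ± 1.46 in iHRAS* melanomas against 4.86 ± 1.14 in melanocytes (SD, n = 6, 6 and 4; limma adjusted p = 2e-04 and 7.5e-05). All 4 melanocyte arrays were dim for it, so its level there is only a bound. Set against the dim level of 6.21, Angptl4 was at least 8.51-fold higher in iMet and at least 12.2-fold higher in iHRAS* melanomas. Plod1 and Plod2, collagen lysyl hydroxylases, rose by 1.51 and 2.29 in iMet and by 1.00 and 1.85 in iHRAS* melanomas. Fibroblast markers, of which 6 of 8 were higher in iMet and 5 of 8 in iHRAS* melanomas, averaged 11.79 and 11.75 there against 9.25 in melanocytes. Plod2 had 9.40, 7.89, 10.01 and 7.88 on melanocyte arrays 1 to 4, where the fibroblast means were 10.24, 8.30, 10.93 and 7.54. The part of fibroblast signal in the Plod values was not tested. Stc2, a secreted glycoprotein, fell by 2.28 and 1.69 in these models. Slc2a3, the GLUT3 glucose transporter, averaged 7.82 in iMet and 8.89 in iHRAS* melanomas against 5.04 in melanocytes (adjusted p = 5.86e-06 and 3.41e-07). It too was dim on all 4 melanocyte arrays, and against the dim level it was at least 3.05-fold and at least 6.41-fold higher. Between the tumours Slc2a3 was 1.07 lower in iMet than in iHRAS* melanomas on the log2 scale (adjusted p = 0.0159).

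The lactate exporter Slc16a3 rose by 2.86 in iMet (adjusted p = 0.0177) and by 3.74 in iHRAS* melanomas (adjusted p = 0.00326), against melanocyte signals of 5.61 to 6.52, around the dim level. The muscle enolase Eno3 rose by 2.15 and 1.15 (adjusted p = 0.00112 and 0.0376), while skeletal muscle markers averaged 6.92 over iMet and 6.14 over iHRAS* arrays against 4.82 over melanocytes, and their part was not tested. Of 6 pentose phosphate genes tested, 1 was higher in iMet and 2 in iHRAS* melanomas, against 16.4% and 18.1% of all genes. The transketolase Tkt rose by 0.76 and 0.77 (adjusted p = 0.000275 and 0.000246), and the isomerase Rpia by 1.04 in iHRAS* melanomas (adjusted p = 0.0032). Of 6 other HIF regulators tested, 3 were lower in each model, against 18.7% of all genes in iMet and 21.3% in iHRAS* melanomas. These were Eloc and Elob, the elongin partners of VHL, at -0.39 and -0.44 in iMet and -0.90 and -0.60 in iHRAS* melanomas, and the ubiquitin ligase Siah1a at -0.69 and -1.19. Between the tumours 1 of the 6 was higher in iMet, against 11.2% of all genes. This was Eloc, at 0.51 (limma adjusted p = 0.0047). Every iMet array lay above every iHRAS* array for it, and the ranges did not overlap for 10.7% of all genes.

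Within each tumour group the members spread more widely than most genes. Their median SD was 0.59 over iMet and 0.56 over iHRAS* arrays, against 0.26 and 0.32 over all tested genes. Of the 32 members, 29 had an SD above the median gene in iMet and 27 in iHRAS* melanomas, and 16 and 8 lay in the top 10% of genes. Adm had the largest SD of the members in both groups (1.79 and 1.86), followed in iHRAS* melanomas by Egln3 (1.69), Bnip3 (1.63), Pdk1 (1.36), Eno2 (1.30) and Ero1a (1.14). Adm was above the dim level on 5 iMet and 2 iHRAS* arrays, so its SD takes in background signal. The SD of Vhl (0.08 in iMet and 0.24 in iHRAS* melanomas) was below the median gene in both, and those of Hif1a (0.22 and 0.33) and Pgk1 (0.24 and 0.31) were close to it.

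Whether the spread differs between the models was tested with limma on absolute deviations from the group mean. No member was called, and 5 of 8058 genes were (0.0621%). At an unadjusted p under 0.05 there were 1 member and 1064 genes. The member was Ldhb, with an SD of 0.88 in iMet and 0.23 in iHRAS* melanomas (adjusted p = 0.173). For Bnip3 the SD was 1.12 in iMet and 1.63 in iHRAS* melanomas (adjusted p = 0.529), and for Egln3 0.99 and 1.69 (adjusted p = 0.617).

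**Figure D3:**
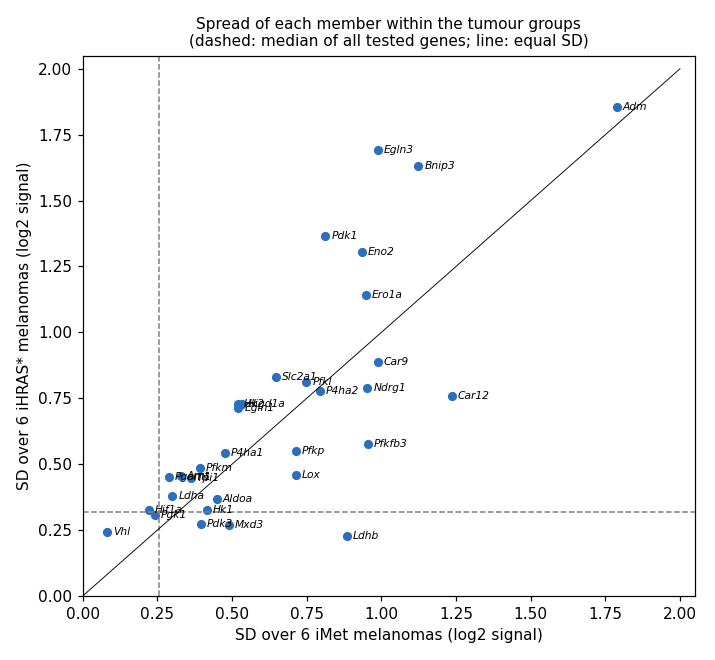
SD of each of the 32 tested members over 6 iMet arrays (horizontal axis) and 6 iHRAS* arrays (vertical axis), in log2 signal. Dashed lines give the median SD of all tested genes (0.26 and 0.32), and most members lie above both, with Adm, Egln3 and Bnip3 farthest out.

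The members' spread was shared between them: 1 array of each tumour group was high for most. iMet array 4 was the highest of its 6 for 24 of 32 members, whereas 18.1% of all genes were highest there. iHRAS* array 3 was the highest of its 6 for 27 of 32 members, against 28.5% of all genes. On both arrays at once 22 members (68.8%) were highest, against 6.61% of genes. Since the 2 arrays were singled out after their values were seen, these counts are a description without a test. iMet array 2 was highest or second for 24 members and iHRAS* array 2 for 23. The low end was iMet array 6, lowest for 21 members (19.9% of all genes), and iHRAS* array 1, lowest for 13 (13.4%). The count on iMet array 4 was 24 under each of the 3 scalings tried, with 19.2% of all genes highest there as deposited and 23.9% with median centring. On iHRAS* array 3, which has the lowest deposited median of the 16 arrays (6.57), it was 22 as deposited (13.9% of all genes) and 28 with median centring (37.8%).

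The 22 shared members included the glucose transporter Slc2a1, the enzymes Hk1, Pfkl, Pfkp, Aldoa, Tpi1, Pgk1, Pgam1, Eno2 and Ldha, the kinase Pdk1, and Bnip3, Car9, Adm, Ndrg1, P4ha1, P4ha2, Higd1a, Ero1a, Egln1, Egln3 and Arnt. Not highest on iMet array 4 were Hk2, Pfkm, Ldhb, Car12, Hif1a, Vhl, Mxd3 and Lox, and Car12 was lowest there. Not highest on iHRAS* array 3 were Hk2, Pfkfb3, Ldhb, Pdk3 and Lox. Hif1a itself stood at 10.98 on iMet array 4, in the middle of its group, and at 11.82 on iHRAS* array 3, the highest of its group.

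Ndrg1 and Egln1 are examples with shifts larger than that of the median member. Ndrg1 stood at 11.64 on iMet array 4 against 8.98 to 10.73 on the other iMet arrays, and at 11.63 on iHRAS* array 3 against 9.23 to 10.19 on the other iHRAS* arrays. Egln1 stood at 10.44 against 8.97 to 9.65, and at 11.01 against 8.98 to 9.83. The median member on iMet array 4 exceeded the mean of the other 5 arrays by 0.81 and that on iHRAS* array 3 by 1.01, where the median of all genes moved by -0.03 and 0.05.

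Of the 20 further hypoxia-induced genes, 8 were highest on iMet array 4 and 12 on iHRAS* array 3, against 18.1% and 28.5% of all genes. The histone demethylase Kdm3a and the MAX partner Mxi1, for example, were highest on both, with Mxi1 at 10.21 against 9.01 to 9.95 and at 11.00 against 8.53 to 9.83. Of the 8 other glycolysis, glycogen and fructose bisphosphate genes 3 and 2 were highest on these arrays, of the 8 genes of pyruvate, lactate and mitochondrial entry 2 and 4, of the 6 other HIF regulators 0 and 1, and of the 6 pentose phosphate genes 1 and 0. Cell type markers on these arrays lay on both sides of their groups. On iMet array 4 the keratinocyte mean was 4.83, second lowest of the 6, and the macrophage mean 11.01, the highest with array 3. Skeletal muscle markers averaged 4.55 on iMet array 4, the lowest of its group, and 7.94 on iHRAS* array 3, the highest. On iHRAS* array 3 the keratinocyte (8.62), endothelial (6.47) and macrophage (8.63) means were the lowest of the 6, and their part in the member values was not tested. With iMet array 4 and iHRAS* array 3 left out, 6 members were called lower than in melanocytes in each model, against 2 in iMet and 3 in iHRAS* melanomas with all arrays. The share of all genes called lower in those fits is not given here, so these counts do not show a change particular to the members.

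**Figure D4:**
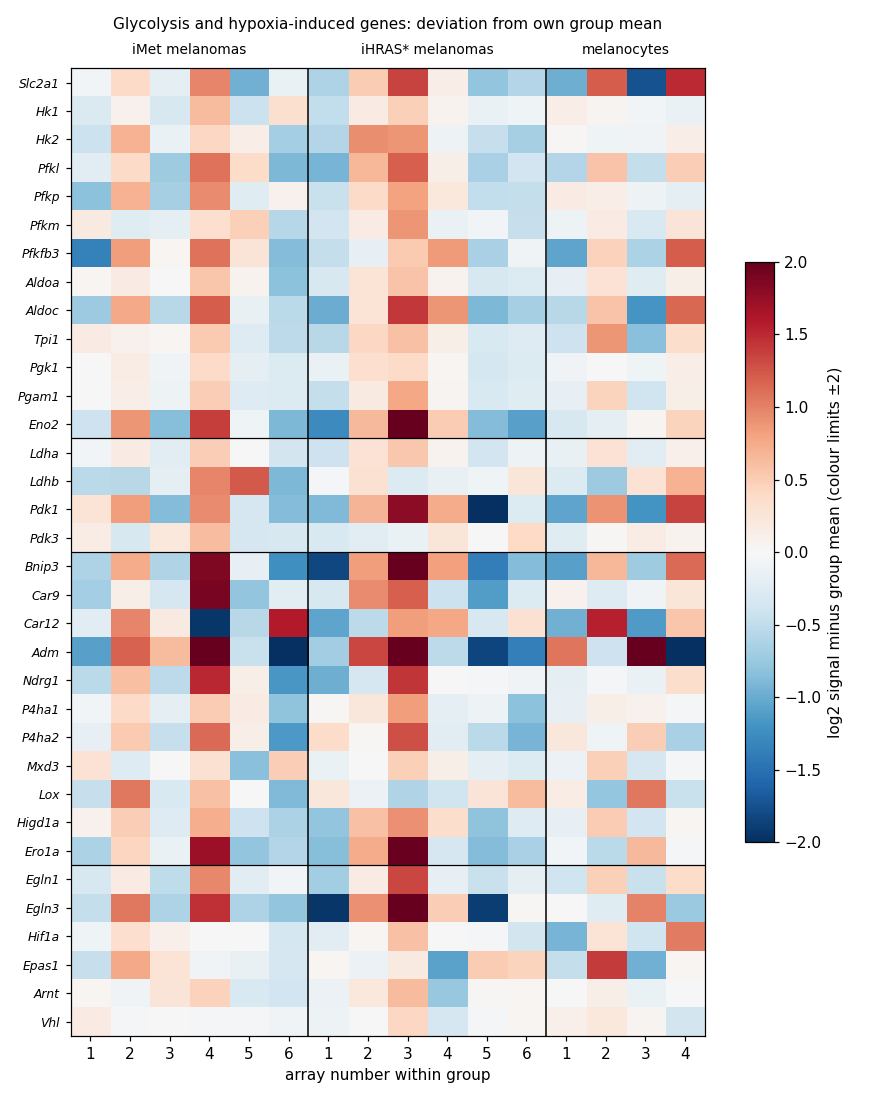
Log2 signal minus the mean of the same group for the 34 members (rows, in blocks by role) on iMet arrays (left), iHRAS* arrays (middle) and melanocyte arrays (right), with deviations beyond 2 drawn at the colour limit. iMet array 4 and iHRAS* array 3 are red for most rows, and melanocyte arrays 2 and 4 share many red rows.

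**Figure D5:**
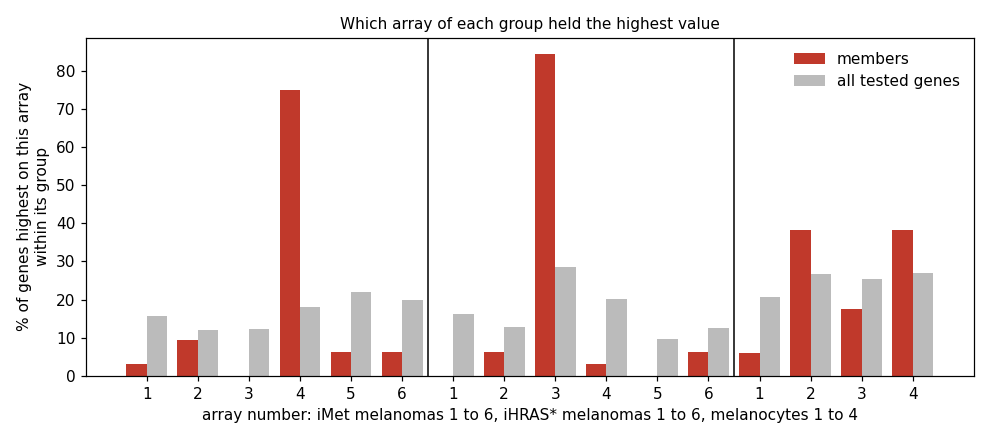
Percentage of the tested members (red) and of all tested genes (grey) whose highest value in a group fell on each array. Members peak on iMet array 4 (24 of 32) and iHRAS* array 3 (27 of 32).

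The melanocyte arrays also fell into pairs for many members, as seen after their values were known. Arrays 2 and 4 were both above arrays 1 and 3 for 19 of 34 members, against 25.7% of 8651 genes, and both below for 4 members, against 27.1%. Slc2a1 had 9.71, 11.89, 8.94 and 12.18 on melanocyte arrays 1 to 4. Pdk1 had 6.90, 8.85, 6.75 and 9.30, Bnip3 9.18, 10.94, 9.56 and 11.41 and Hif1a 10.15, 11.36, 10.69 and 12.12. The 4 members that ran the other way were Adm (5.75, 4.26, 7.01 and 1.69), Lox, P4ha2 and Egln3. For Adm and for Egln3 only 1 melanocyte array was above the dim level. The same arrays differed in marker signal, with keratinocyte means of 7.28, 9.17, 6.43 and 8.98 and fibroblast means of 10.24, 8.30, 10.93 and 7.54 on arrays 1 to 4, and their part in the member values was not tested. Hk1 and Hk2 held between 10.41 and 10.68 and between 8.49 and 8.71 on the 4 arrays. With arrays 1 and 3 left out the iHRAS* calls of Pfkp (adjusted p = 0.0639), Ero1a (0.0835), P4ha2 (0.237) and Vhl (0.0501) did not pass the threshold, and with arrays 2 and 4 left out those of Pfkp (0.0921), Ero1a (0.273), P4ha2 (0.0516) and Mxd3 (0.0725) did not.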

How the data were processed

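RNA of 16 samples (6 iMet melanomas, 6 iHRAS* melanomas, 4 melanocyte samples) was measured on Affymetrix arrays. The authors deposited 1 table of log2 values for 22690 probe sets (probe summary and scaling: not given in the sources used here). Deposited column medians spread by 0.72, more than the limit of 0.3 that had been set, so 22626 probe sets were quantile normalized without the 64 control probe sets. Higher and lower are therefore relative to the rest of each array. Gapdh control values were placed on each array's normalized scale. Genes brighter than log2 6.21, the 40th percentile, on at least the smaller group's number of arrays were tested with limma 3.58.1 in R 4.3.3 (lmFit, eBayes, Benjamini-Hochberg over all tested genes, adjusted p under 0.05). The tumours were fitted on their 12 arrays and the melanocyte comparisons on all 16. The spread was tested with limma on absolute deviations, and dim or control probe sets with two-sided exact permutation tests. The scripts were tested on simulated data. The number of arrays limits the precision. Alternatives changed the scaling, the filter, the probe sets, the samples and the replicate block. Members that passed a test are given by array in the groups compared, except Vhl in the tumours, and the rest by value or range. From each other pathway list at most 4 genes with the smallest p are named as tested results, and Kdm3a and Mxi1 were picked once their values had been seen. The members and lists were chosen with earlier results of these data known. Promoters are from RefSeq (GRCm38.p6).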

Additional observations from a re-analysis of the deposited data

Results flagged for a closer look

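In iMet melanomas, Car9 on array 4 (8.35) stood far above the next array (6.57) and Vhl on array 1 (7.36) above the next (7.18). These were 2 of 111 sets of arrays examined by Dixon's gap-to-range criterion at the 95% level, which by its construction picks about 1 set in 20 by chance.

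For 3 members the difference between the models was called by limma on the tumour arrays. The melanocyte mean cancels when changes against melanocytes are subtracted, so these are the calls between the tumours given above, not further results. They were 9.38% of the 32 members tested, against 20.9% of the 8058 genes tested. Differences are iMet minus iHRAS* on the log2 scale. They were -1.19 for Hk1 (limma adjusted p = 0.0021), -1.26 for Pfkp (adjusted p = 0.0197) and -2.12 for Car12 (adjusted p = 0.0153).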

How the results depend on the processing

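Between the tumours, 1 member was called higher (0 in the values reported) on deposited values, with all probe sets averaged and in a fit on 16 arrays. Genes called were 1800 higher and 448 lower on deposited values. With keratinocyte and endothelial means as covariates they were 38 and 51, with 0 members lower, and Car12 turned to 0.013. Car12 was -2.12 (adjusted p = 0.0517) without iHRAS* arrays 5 and 6. For iMet against melanocytes, members called higher (1 reported) were 3 on deposited values, 2 with median centring, with the 2 groups alone and without melanocyte arrays 1 and 3, and 0 without melanocyte arrays 2 and 4. Members called lower (2 reported) were 1 on deposited values and with no dim filter, 4 with median centring and with probe sets averaged, and 6 without melanocyte arrays 1 and 3 or without iMet array 4 and iHRAS* array 3, the last alternative chosen after seeing the data. For iHRAS* against melanocytes, members called higher (4 reported) were 2 with probe sets averaged and without melanocyte arrays 1 and 3, and 7 without iHRAS* arrays 5 and 6. Members called lower (3 reported) were 5 with probe sets averaged and 6 without iMet array 4 and iHRAS* array 3, and 1117 genes (1839 reported) were lower without melanocyte arrays 2 and 4. The spread test called 14 genes on deposited values, 10 with median centring, 80 with no dim filter, 8 with probe sets averaged and 229 without iHRAS* arrays 5 and 6 (5 reported). Where members alone are counted, the share of all genes called in the same fit is not given here. The causes of these changes were not tested.

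With each array left out in turn, members called higher and lower ranged from 0 to 1 and stayed at 3 between the tumours, from 1 to 3 and 1 to 5 for iMet against melanocytes and from 3 to 5 and 2 to 6 for iHRAS* against melanocytes. Genes called higher and lower ranged from 660 to 984 and 626 to 813, from 1207 to 1483 and 1233 to 1736, and from 1291 to 1603 and 1449 to 1957 in the same order. The spread test called 0 members and 2 to 102 genes.

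Arrays of different groups share replicate numbers. Same-numbered arrays deviated from their group means with correlations of -0.23 to 0.14 between the tumours. Such correlations cannot tell whether same-numbered arrays share more than a number. With the replicate number as a block, 621 genes were higher and 565 lower between the tumours, with 3 members lower. The block fits against melanocytes kept only arrays 1 to 4 of the groups compared and left out the other tumour model. They gave 932 and 1045 genes and 2 members higher for iMet melanomas. For iHRAS* melanomas they gave 579 and 465 genes and 1 member lower. Effects of the block and of the arrays left out were not separated in these counts.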
